A study of Homo sapiens with 6 samples.

Results

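NF-kappaB is a family of dimeric transcription factors, and the 10 genes described here encode its subunits (NFKB1, NFKB2, REL, RELA and RELB), IkappaB proteins that bind those subunits (NFKBIA, NFKBIB, NFKBIE and NFKBIZ) and the ubiquitin-editing inhibitor A20 (TNFAIP3). They were chosen by gene symbol, and every probe set annotated to exactly 1 of them was taken, which gave 22 of the 54613 probe sets fitted and 10 of the 19775 genes. Their transcripts were compared between PC9, a lung adenocarcinoma cell line that is sensitive to the EGFR kinase inhibitor gefitinib, and PC9/gef, a resistant line obtained from PC9 by continuous exposure to rising concentrations of the drug. Each line was measured on 3 Affymetrix arrays, 1 per sample, in cells kept in RPMI-1640 medium with fetal bovine serum. The samples of a line are labelled biological replicates, but separate cultures are not described, so the p-values measure the spread between these samples, which may be technical. PC9/gef stands for 1 selected line; whether it is a single clone, and whether gefitinib was present at harvest, is not given in the sources used here.

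In resting cells IkappaB proteins such as IkappaB-alpha, the product of NFKBIA, hold Rel dimers in the cytoplasm. Cytokines such as interleukin-1 and TNF activate the IkappaB kinase complex, IkappaB is degraded and the dimers move to the nucleus, where they induce cytokine and survival genes and also the genes of their own inhibitors. NFKBIA and TNFAIP3 are the best known of these feedback genes. The subunit precursors made by NFKB1 and NFKB2 are processed to p50 and p52, whereas RELA, RELB and REL carry the transactivation domain. Much of this control acts on protein location and stability, which the arrays do not measure.

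The promoters are shown first, because several of these genes are known feedback targets of NF-kappaB. The motif searched on both strands was GGG, any 2 bases, then TTTCC, in windows of 300 bases from 250 before to 50 after each annotated start (RefSeq, GRCh38.p14), and 8 of the 10 genes had such a window (RELB and NFKBIE did not). A match was found in 7 of these 8 genes, among them genes that were higher, lower or not different in PC9/gef, compared with 635 of all 27305 genes with a window (2.33%). No match was found in either window of RELA. With the looser NF-kappaB consensus motif, which overlaps the first, 7 of the 8 genes and 7.09% of all genes had a match. The stretches below contain only bases before the start, on the strand of the gene, with the matches in capitals. They are those of the 2 feedback inhibitors that moved in opposite directions, of NFKBIZ, and of 2 subunit genes without a call.
TNFAIP3, chr6:137867162-137867243, plus strand: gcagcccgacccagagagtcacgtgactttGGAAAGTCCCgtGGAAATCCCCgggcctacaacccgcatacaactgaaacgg
NFKBIZ, chr3:101827740-101827806, plus strand: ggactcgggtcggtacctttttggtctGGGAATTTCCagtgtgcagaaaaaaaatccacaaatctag
NFKBIA, chr14:35404791-35404860, minus strand: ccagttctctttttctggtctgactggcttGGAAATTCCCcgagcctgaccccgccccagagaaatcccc
NFKB1, chr4:102501280-102501349, plus strand: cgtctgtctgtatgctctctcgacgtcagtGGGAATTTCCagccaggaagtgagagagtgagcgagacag
REL, chr2:60881498-60881567, plus strand: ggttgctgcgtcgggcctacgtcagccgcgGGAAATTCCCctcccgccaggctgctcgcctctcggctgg
Counted from the start, with -1 the base before it, the first base of a match lay at -67 and -55 in TNFAIP3, -81 in NFKBIA, -49 in NFKB1, -46 in REL and -223 in NFKBIZ. A match is a description of the letters and does not show that a factor binds there.

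**Figure D1:**
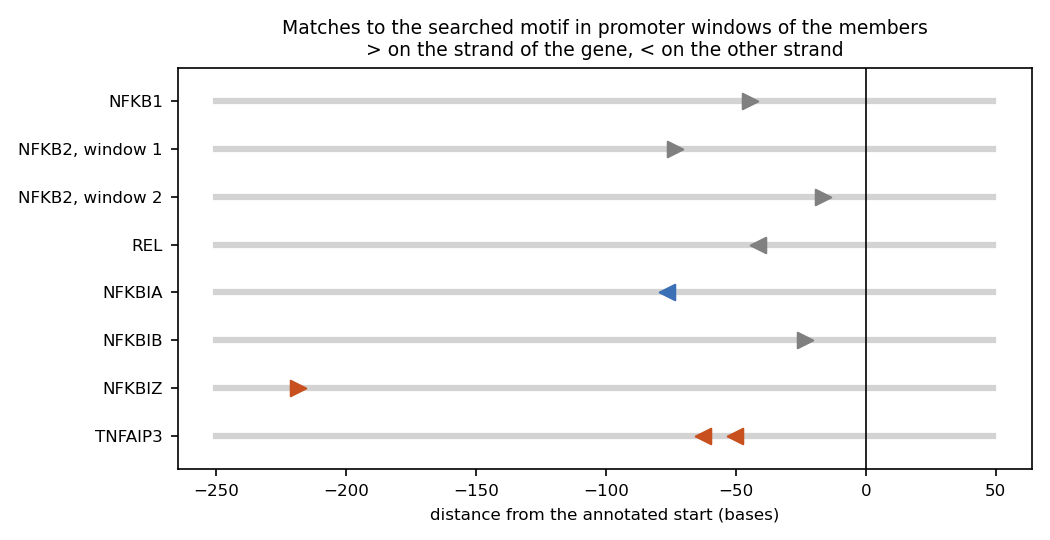
Position of the motif matches (triangles, pointing along the strand that holds the match) in the promoter windows with a match, by distance from the annotated start in bases. Orange marks genes that were higher in PC9/gef, blue the lower gene and grey genes that did not pass or lay at background level. All matches lie before the start, that of NFKBIZ farthest from it, at -223, and the others from -81 onwards.

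The values are log2 probe set values as normalized by the authors, and the distribution of values was the same on all 6 arrays. Background level was set at 2.65, taken from 135 olfactory receptor probe sets as the 95th percentile of their means, and was judged from the mean of each line. EPCAM, CDH1, KRT7, KRT8, KRT18, KRT19, EGFR and SFTPB, 8 of 10 epithelial and lung adenocarcinoma markers, were above background level, whereas the lung lineage markers NKX2-1 and NAPSA were not in either line. The leukocyte markers PTPRC, CD3E, CD14 and MS4A1 lay at background level. ITGAM lay above it, with the arrays of the lines apart, and did not pass (log2 change 1.16, adjusted p = 0.0627 from limma). The summed linear level of the 5 measured leukocyte markers was 34.2 to 34.5 in PC9 and 43.8 to 66.2 in PC9/gef, through ITGAM. Of 7 fibroblast and endothelial markers, COL1A1 and PECAM1 were above background level, with a summed level of 729 to 792 in PC9 and 457 to 479 in PC9/gef. These 2 differed in direction, with a log2 change of -2.40 in PECAM1, which passed (adjusted p = 0.00028 from limma), and of 0.52 in COL1A1, which did not (adjusted p = 0.0573). Their part in the results was not tested. In such bulk RNA a smaller share of expressing cells and less RNA per cell cannot be told apart.

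TNFAIP3, NFKBIZ and RELA were higher in PC9/gef, NFKBIA was lower, and RELB had the largest estimate without passing the test. Each gene was represented by the brightest of its probe sets, by the mean of all 6 arrays. By limma with Benjamini-Hochberg adjustment over all probe sets, 3 of the 10 genes were higher (12.6% of all genes were), 1 was lower (11.8% of all genes were, and 24.4% were either), 5 did not pass and NFKB2 could not be read, being at background level. Of the 9 genes above background level in at least 1 line, 4 were called, near the 40.4% of all such genes (20.9% higher and 19.5% lower), so the share called is not a result about these genes. In 6 of these 9 genes the arrays of the lines did not overlap, compared with 65% of all genes above background level. None of the 10 genes differed more than 2-fold, the size that the study's methods require of a differentially expressed gene, and the median log2 change was 0.12, beside -0.00065 over all genes. The 4 called genes were all read from probe sets named _s_at, which can bind more than 1 transcript.

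**Figure D2:**
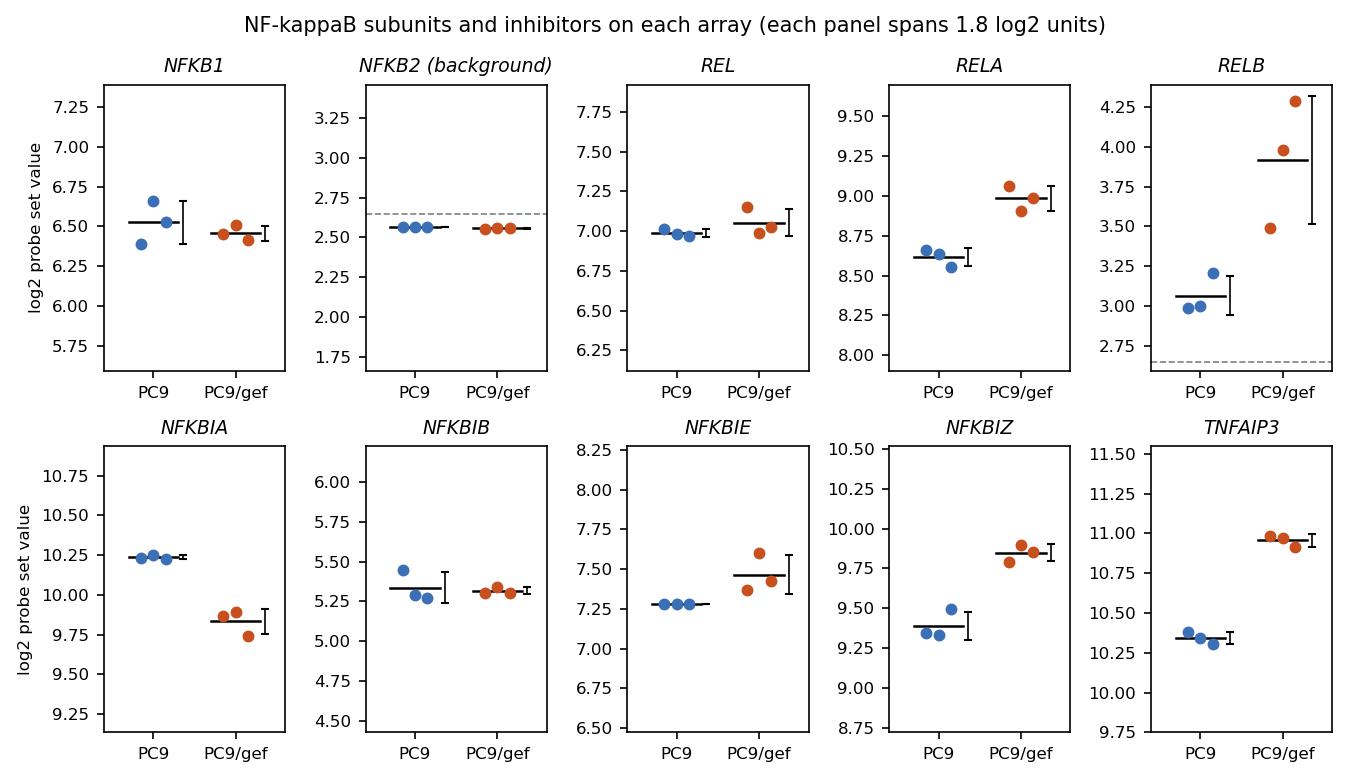
Log2 probe set value of each gene on each array, PC9 in blue and PC9/gef in orange, with the mean as a bar, the SD as an error bar (n = 3 arrays) and background level as a dashed line where it falls in the panel. Each panel spans 1.8 log2 units. TNFAIP3, NFKBIZ, RELA and RELB lie higher in PC9/gef, NFKBIA lies lower, and RELB has the widest spread.

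Of the subunit genes, RELA was higher in PC9/gef, NFKB1 and REL did not pass the test and NFKB2 was not detected above background level. RELA encodes p65, the transactivating partner of p50 in the most common dimer. Its log2 values were 8.66, 8.63 and 8.56 in PC9 and 9.06, 8.90 and 8.99 in PC9/gef. All 3 PC9/gef arrays lay above all 3 PC9 arrays, and the level was 1.29-fold higher (log2 change 0.37 with a standard error of 0.052, 95% confidence interval 0.23 to 0.51, adjusted p = 0.0150). The call was lost without PC9 replicate 2 (adjusted p = 0.0630) or 3 (0.0552), without PC9/gef replicate 3 (0.0660) and when all probe sets of the gene were averaged (log2 change 0.22, adjusted p = 0.122), over a range of 0.0026 to 0.122 in all alternatives. The other probe set of RELA, at a mean of 4.78 in PC9 and 4.85 in PC9/gef, did not pass (log2 change 0.06, 95% confidence interval -0.36 to 0.48, adjusted p = 0.765).

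RELB, whose protein pairs with p52 in the non-canonical arm of the pathway, was dim and variable. Its log2 values were 2.989, 3.001 and 3.204 in PC9, just above background level, and 3.487, 3.982 and 4.285 in PC9/gef. The groups did not overlap, but the SD was 0.12 in PC9 and 0.40 in PC9/gef, and the log2 change of 0.85 (95% confidence interval 0.23 to 1.47) did not pass (adjusted p = 0.0751). It passed without PC9/gef replicate 1, the lowest of the 3 (log2 change 1.07, adjusted p = 0.0319), with trend and robust moderation (0.0459) and when only probe sets above background level were fitted (0.0197), within a range of 0.0197 to 0.211.

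NFKB1, which encodes the p105 precursor of p50, had log2 values of 6.39, 6.66 and 6.52 in PC9 and 6.45, 6.51 and 6.41 in PC9/gef. The arrays of the lines overlapped, and the log2 change was -0.07 with a 95% confidence interval of -0.28 to 0.14 (adjusted p = 0.539). For REL, which encodes c-Rel, the brightest of 5 probe sets had a log2 change of 0.06 (95% confidence interval -0.07 to 0.20, adjusted p = 0.381). The other 3 REL probe sets above background level did not pass either and differed in sign, with log2 changes of 0.22, -0.25 and 0.12, so no direction can be given for REL. NFKB2, which encodes the p100 precursor of p52, lay at background level on all 3 of its probe sets, with means from 2.35 to 2.56 in both lines, and a change in it could not be read.

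Among the inhibitors, A20 and IkappaB-zeta transcripts were higher and IkappaB-alpha transcripts lower in PC9/gef. TNFAIP3 encodes A20, which removes activating ubiquitin chains from signalling proteins upstream of the IkappaB kinases. Its log2 values were 10.38, 10.34 and 10.30 in PC9 and 10.98, 10.97 and 10.91 in PC9/gef. The groups were far apart compared with their spread, a 1.53-fold rise (95% confidence interval 1.45 to 1.62; log2 change 0.61, standard error 0.031, adjusted p = 0.00086). The second probe set of TNFAIP3 rose 1.42-fold, from a mean of 8.83 ± 0.050 (SD, n = 3) to 9.33 ± 0.074 (SD, n = 3), with an adjusted p of 0.0050 from limma. TNFAIP3 passed under all alternatives that used a test, its adjusted p from 0.00011 to 0.0112, and has no value without _s_at probe sets.

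NFKBIZ encodes IkappaB-zeta, a nuclear IkappaB protein that acts with p50 on a subset of target genes such as IL6. Its log2 values were 9.35, 9.33 and 9.49 in PC9 and 9.79, 9.90 and 9.86 in PC9/gef. All PC9/gef arrays lay above the PC9 arrays, and the level was 1.38-fold higher (log2 change 0.46 with a standard error of 0.057, 95% confidence interval 0.31 to 0.61, adjusted p = 0.0103). Without PC9/gef replicate 3 its adjusted p was 0.0501, within a range of 0.0015 to 0.0750 over the alternatives. The second probe set lay at 6.17 ± 0.15 (SD, n = 3) and 6.49 ± 0.026 (SD, n = 3), its arrays also apart, and did not pass (log2 change 0.31, 95% confidence interval 0.09 to 0.54, adjusted p = 0.0725 from limma).

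NFKBIA encodes IkappaB-alpha, the classical cytoplasmic inhibitor. Its log2 values were 10.23, 10.25 and 10.23 in PC9 and 9.87, 9.89 and 9.74 in PC9/gef. Every PC9/gef array lay below every PC9 array, a 1.32-fold fall (95% confidence interval 1.22 to 1.43; log2 change -0.40, standard error 0.044, adjusted p = 0.0070). The call was kept in all fits that left out 1 array, with log2 changes from -0.43 to -0.36, and over all alternatives its adjusted p ranged from 0.0011 to 0.0944, the highest without _s_at probe sets. The other probe set of NFKBIA lay at background level, at 2.36 in both lines, so the fall rests on 1 probe set.

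The feedback genes TNFAIP3 and NFKBIA, whose promoter stretches are printed above, moved apart. On each array, the TNFAIP3 value minus the NFKBIA value was 0.15, 0.092 and 0.076 in PC9 and 1.11, 1.08 and 1.17 in PC9/gef on the log2 scale. The pair was chosen after its values were seen, so these differences restate the changes given above and are not a further result. They do not show which transcript was more abundant, since probe sets differ in brightness for the same amount of RNA.

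The genes of the remaining IkappaB proteins did not pass on their brightest probe sets. NFKBIE, which encodes IkappaB-epsilon, had a log2 value of 7.28 on all 3 PC9 arrays and 7.37, 7.60 and 7.43 on the PC9/gef arrays. The lines lay apart, but the log2 change of 0.18 (95% confidence interval 0.0048 to 0.36) did not pass (adjusted p = 0.122), and it passed without PC9/gef replicate 2, the highest array (log2 change 0.12, adjusted p = 0.0428), in a range up to 0.267. NFKBIB, which encodes IkappaB-beta, had overlapping arrays on its brightest probe set (log2 change -0.02, 95% confidence interval -0.17 to 0.13, adjusted p = 0.784). Its dimmest probe set, named _x_at, fell by 0.17 on the log2 scale (adjusted p = 0.0311) and the remaining one did not pass (log2 change -0.12, adjusted p = 0.154). Over all 22 probe sets, 4 were higher (7.61% of all probe sets were), 2 were lower (7.68% were), 11 did not pass and 5 lay at background level. Of the 17 above background level, 6 were called, compared with 32.9% of all such probe sets (16.4% higher and 16.5% lower) and 15.3% of all probe sets. The arrays did not overlap in 10 of the 17, compared with 60.3% of all such probe sets.

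**Figure D3:**
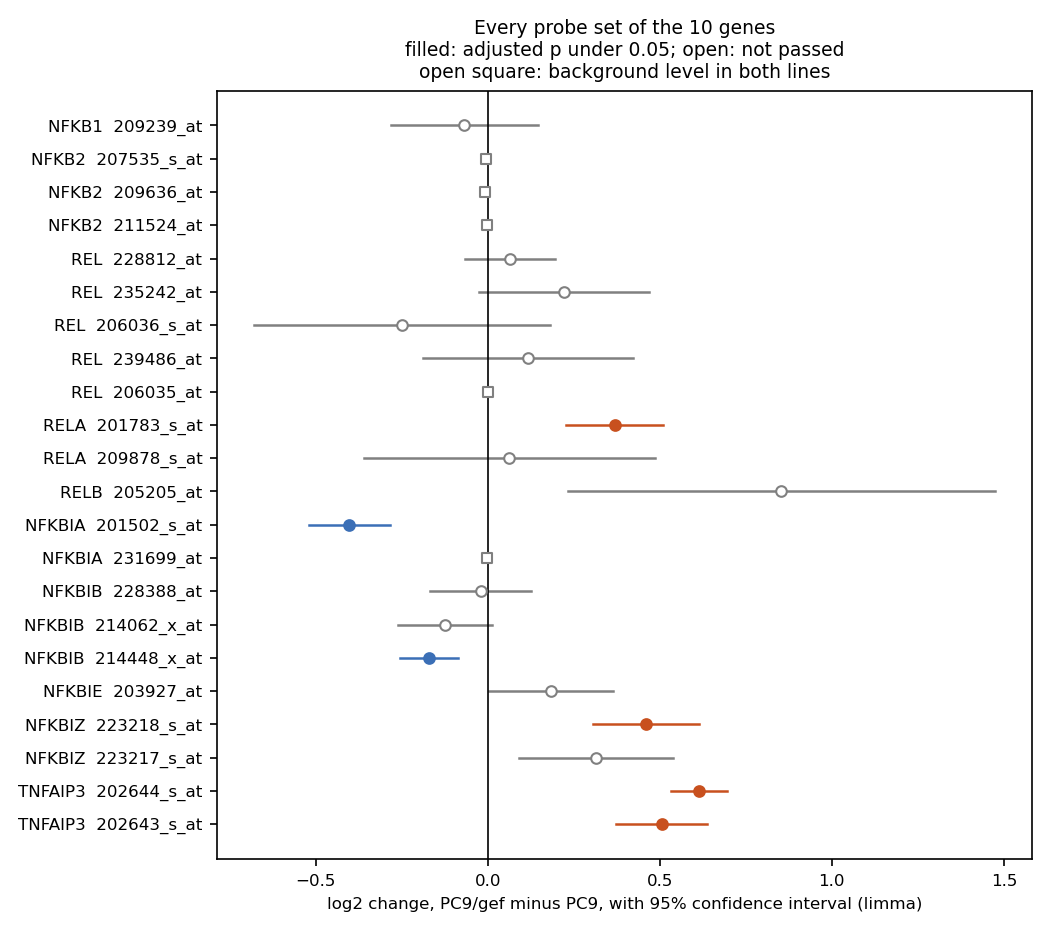
Difference between the lines, as log2 of PC9/gef over PC9, for all 22 probe sets of the 10 genes, with the 95% confidence interval from limma. Filled circles passed at an adjusted p under 0.05, open circles did not and open squares lay at background level in both lines. Both TNFAIP3 probe sets lie above 0, the NFKBIA call rests on 1 probe set, and the RELB interval is the widest.

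Among the genes of kinases that act on IkappaB, and of kinases and adaptors upstream of them, TAB3, MAP3K8 and TBK1 were higher and CHUK was lower. The list is counted as kinases below, although it also holds adaptor genes such as TAB3. The 12 genes gave 3 higher, 1 lower and 8 that did not pass, with a median log2 change of -0.05, and the 4 called of 12 are near the 40.4% of all genes above background level. CHUK, which encodes IKK-alpha, fell by 0.27 on the log2 scale (adjusted p = 0.0443). No kinase was lower in the fits that left out any PC9 array, PC9/gef replicate 1 or PC9/gef replicate 3. The other subunits of the complex did not pass: IKBKB, the gene of IKK-beta, had a log2 change of -0.42 (adjusted p = 0.103) with arrays apart, and IKBKG, the gene of the regulatory subunit NEMO, one of -0.07 (adjusted p = 0.463). TAB3, which encodes an adaptor of the upstream kinase TAK1, had the largest change of the list, from 10.33, 10.34 and 10.36 to 11.19, 11.20 and 11.23 (1.82-fold higher, adjusted p = 8.4e-05). TBK1, an IkappaB kinase relative that also acts in interferon induction, was 1.14-fold higher (adjusted p = 0.0027), and MAP3K8, a kinase that acts with p105, was 1.27-fold higher (adjusted p = 0.0494). The MAP3K8 value lay close to the threshold. The count of higher kinases fell to 2 in all fits that left out 1 array, except that without PC9 replicate 2. Which gene lost its call was not followed.

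Among the adaptor and ubiquitin ligase genes, TRAF5, TRAF3 and RIPK2 were higher and MALT1 was lower. Of 18 measured genes of 21, 7 were higher, 3 were lower and 8 did not pass, with a median log2 change of 0.11. All 18 were above background level, where 20.9% of all genes were higher and 19.5% lower. TRAF5, an adaptor of TNF family receptors, was 1.77-fold higher (adjusted p = 0.0013). TRAF3, which restrains the non-canonical arm, was 1.62-fold higher (adjusted p = 0.0028). RIPK2, the kinase adaptor of NOD receptors, was 1.52-fold higher (adjusted p = 0.0021). MALT1, a protease of the CARD-BCL10-MALT1 complex, was 1.51-fold lower (adjusted p = 0.0059). Its partners on the list, BCL10 and CARD10, were higher (log2 changes 0.34 and 0.097, adjusted p = 0.0014 and 0.0286). The other lower genes of the list, IRAK2 and MYD88, had log2 changes of -0.46 (adjusted p = 0.0030) and -0.15 (adjusted p = 0.0421). BCL10, CARD10, IRAK2 and MYD88 were chosen after their values were seen. Leaving out PC9 replicate 1 or PC9/gef replicate 1 gave 4 higher and 2 lower genes, and leaving out PC9 replicate 3 gave 4 higher and 4 lower.

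Of 17 measured genes of 19 for other pathway inhibitors, 5 were higher and 2 lower, 7 did not pass and 3 lay at background level (NFKBID, TNIP3 and IRAK3), with a median log2 change of 0.09. The 14 above background level include 7 called genes, compared with 40.4% of all such genes called. CYLD, a deubiquitinase that like A20 acts on signalling complexes, was 1.68-fold higher (adjusted p = 0.0020). TNIP1, a ubiquitin-binding partner of A20, had log2 values of 11.22, 11.12 and 11.24 in PC9 and 11.71, 11.71 and 11.73 in PC9/gef. Its arrays lay apart in the same direction as those of TNFAIP3, a 1.44-fold rise (adjusted p = 0.0019). NKIRAS1 and NKIRAS2, relatives of Ras that bind IkappaB proteins, went opposite ways, NKIRAS1 being 1.45-fold lower (adjusted p = 0.0017) and NKIRAS2 1.35-fold higher (adjusted p = 0.0258). Leaving out PC9 replicate 1, PC9 replicate 2 or PC9/gef replicate 3 lowered the higher count to 3, and the lower count was 1 in all fits that left out 1 array except that without PC9/gef replicate 1.

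**Figure D4:**
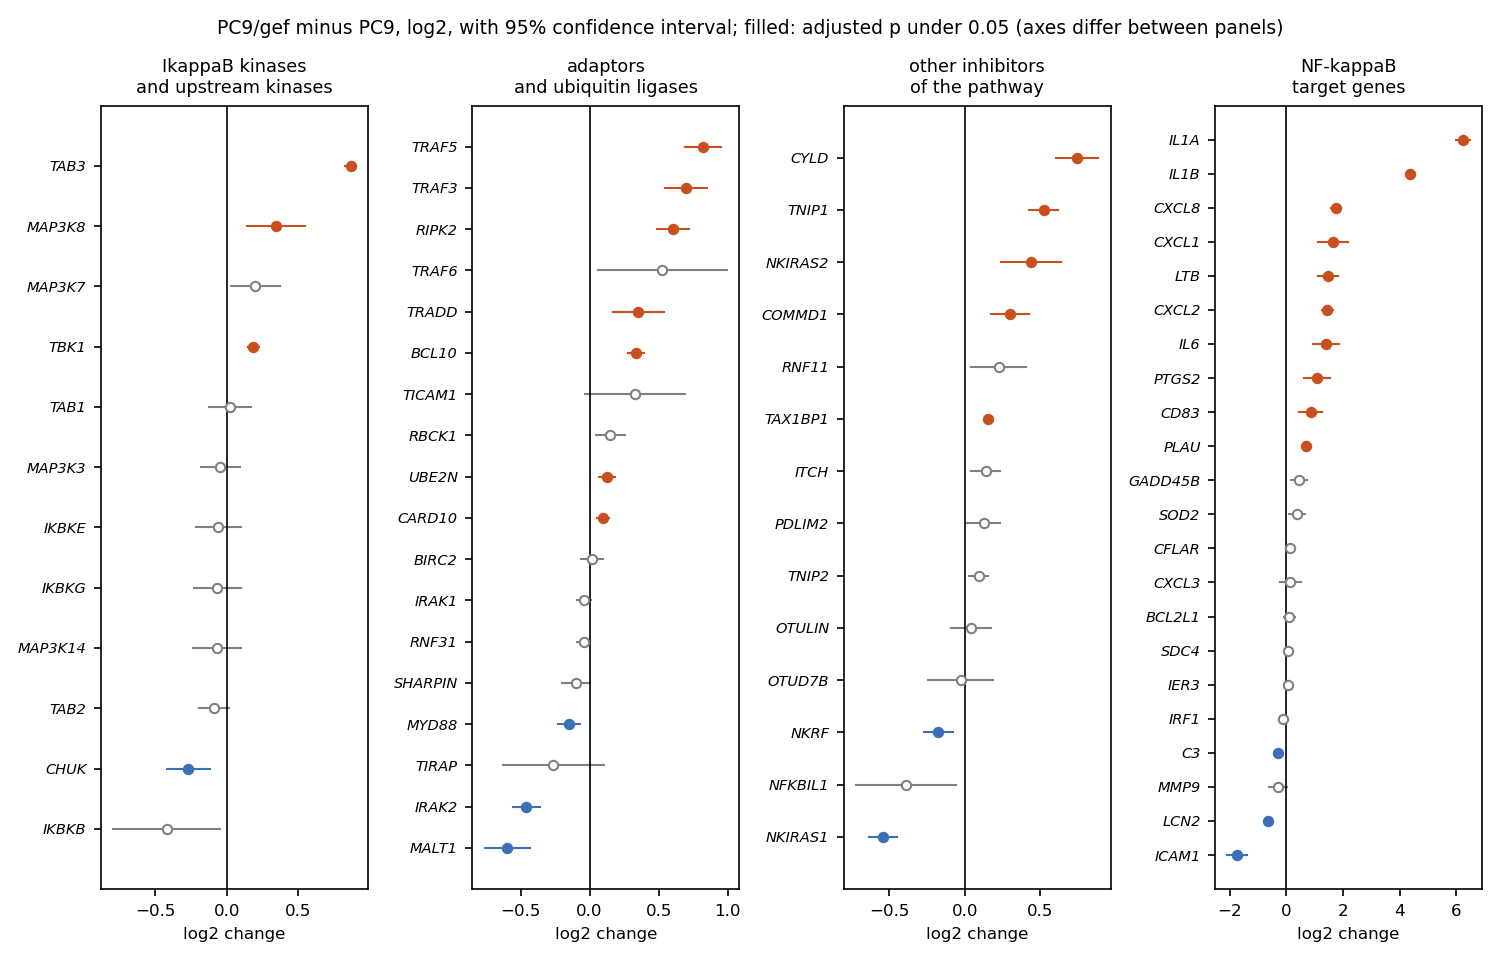
Difference between the lines, as log2 of PC9/gef over PC9, for the pathway genes above background level in at least 1 line, in 4 lists, with the 95% confidence interval from limma. Filled points passed at an adjusted p under 0.05, and the horizontal axes differ between panels. In the target list IL1A and IL1B have by far the largest changes and ICAM1 the largest fall.

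Of the known NF-kappaB target genes, the cytokine genes IL1A, IL1B and CXCL8 were higher and ICAM1 was lower. Of 29 measured genes of 31, 10 were higher, 3 were lower, 9 did not pass and 7 lay at background level. The median log2 change was 0.11, beside 0.12 for the 10 subunit and inhibitor genes. Among genes above background level, it was 0.41 for the targets, 0.18 for the subunit and inhibitor genes and -0.0098 for all genes. Of the 22 above background level, 13 were called, compared with 40.4% of all such genes. Of the same 22, 8 were more than 2-fold higher and 1 more than 2-fold lower, compared with 4.77% of all such genes in either direction. The list holds cytokine genes that the study chose on these arrays for differing more than 2-fold (IL1A, IL1B, CXCL8, CXCL1, LTB, CXCL2 and IL6). The direction, median, called count and 2-fold count of the list are therefore not independent of that choice, and no excess is read from them. IL1A was 75.1-fold, IL1B 20.6-fold and CXCL8 3.39-fold higher (adjusted p = 7.6e-05, 3.0e-05 and 0.00048). The remaining higher genes were chosen after their values were seen. They were CXCL1 (3.13-fold), LTB (2.75-fold), CXCL2 (2.71-fold), IL6 (2.63-fold), PTGS2 (2.13-fold), CD83 (1.81-fold) and PLAU (1.63-fold). ICAM1, which encodes a leukocyte adhesion molecule, was 3.33-fold lower (adjusted p = 0.0023), with log2 values of 7.41, 7.40 and 7.48 in PC9 and 5.43, 5.88 and 5.77 in PC9/gef. The other lower genes, chosen after their values were seen, were LCN2, the gene of the iron-sequestering protein lipocalin 2, and C3, the gene of the central complement component (log2 changes -0.66 and -0.28, adjusted p = 0.00028 and 0.0122). TNF, CCL2, CCL20, CXCL10, VCAM1, BCL2A1 and TRAF1 could not be read, being at background level. Without probe sets named _x_at or _s_at 5 target genes were higher.

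Over all 6 arrays, the genes whose pattern was most like that of TNFAIP3 were PDLIM4, RASEF and LGALS1. The root mean square difference between centred log2 values was 0.010, 0.020 and 0.021, the lowest among 11946 genes above background level. Their log2 changes were 0.63, 0.59 and 0.63, all with limma's adjusted p under 0.05. Values close to those of TNFAIP3 follow from the choice by likeness and are not a further result.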

How the data were processed

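RNA of 3 PC9 and 3 PC9/gef samples was hybridized to Affymetrix Human Genome U133 Plus 2.0 arrays. The deposited values are log2 probe set values that the authors corrected for background, normalized and summarized, by GC-RMA with GeneSpring GX per the supplementary methods and RMA per the submitters' notes, so small and dim changes depend on that step. Scanner files were not used here. Of 54675 probe sets, 62 controls were left out. Probe sets were named by the supplied platform annotation; 41091 had 1 gene, 1801 several and 11721 none. The lines were compared with limma (version 3.58.1, R version 4.3.3) over 54613 probe sets, at an adjusted p under 0.05, with probe sets at background level in both lines put apart. The fit was tested on data with known answers. Precision is limited by signal over background and by the few arrays; with 3 against 3, an exact permutation test could not go below a two-sided p of 0.1.

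Samples were grouped by the labelled cell line. The members, gene lists and tests were chosen with earlier results of these data known. The text names all members, up to 4 called genes with the largest change in each list, and the 3 genes most like the member with the largest called change. Genes of the lists without a probe set of their own, such as IRAK4, RIPK1, TRAF2, BCL3, ZC3H12A, BIRC3, CSF2 and CD68, were not analysed here. Alternatives were median centring, quantile normalization, eBayes with trend and robust settings, leaving out dim probe sets, a block for the replicate number, each array left out, the probe set choice, adjustment over genes, the mean over probe sets and a 2-fold threshold without a test. Python 3.11.15 with matplotlib 3.10.9 drew the figures.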

Additional observations from a re-analysis of the deposited data

How the results depend on the processing

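Quantile normalization, median centring and adjustment over genes left every count within 1.5 times its value, and no log2 change of the 4 called member genes was reversed under any alternative (the genes of the other lists were followed only as counts). Counts are given as higher and lower genes unless probe sets are named.
The replicate numbers of the labels were not a sign of pairing: the deviations of same-numbered arrays correlated at -0.026, 0.016 and 0.048. With the replicate number as a block, 2 member probe sets were higher and 1 was lower, 1 member gene was higher and 0 were lower (1 at an unadjusted p under 0.05 in limma), 3 adaptor genes were higher and 1 was lower, 1 other inhibitor was lower and 6 targets were higher. RELA, NFKBIA and NFKBIZ then had adjusted p = 0.0787, 0.0533 and 0.0750 in limma.
Without probe sets named _x_at or _s_at, 0 member probe sets and 0 member genes were higher and 0 and 0 were lower in limma (2 genes higher and 0 lower at an unadjusted p under 0.05), since TNFAIP3, NFKBIZ and RELA have no probe set of another kind and that of NFKBIA is at background level; 0 kinases were lower, 3 other inhibitors and 5 targets were higher.
At a fold over 2 without a test, 0 member probe sets or genes passed in either direction, and 0 kinases, 0 adaptors and 0 other inhibitors were higher or lower, with 1 target lower. Trend and robust moderation gave 1 lower member probe set, and 2 kinases were lower with only probe sets above background level and when probe sets of a gene were averaged.
Leaving out 1 array gave 2 to 5 higher and 1 to 2 lower member probe sets, 1 to 4 higher and 1 lower member genes (1 higher without PC9/gef replicate 3), 2 to 3 higher and 0 to 1 lower kinases, 4 to 6 higher and 2 to 4 lower adaptors, 3 to 7 higher and 1 to 2 lower other inhibitors, and 8 to 10 higher and 2 to 3 lower targets. Apart from the changes that the settings' own construction shows, the cause was not tested. Dim probe sets such as those of RELB and NFKB2 are limited by signal over background.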
